A study of Mus musculus with 6 samples.

Results

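Genes of the vacuolar proton pump were followed in dendritic cells grown from mouse bone marrow, with and without calcium hydroxide nanoparticles. A fixed list of 10 symbols was matched by name to the deposited expression table, and all 10 were found among its 23398 genes. They encode 4 subunits of the membrane sector (Atp6v0a1, Atp6v0c, Atp6v0d1 and Atp6v0d2), 5 of the cytosolic sector (Atp6v1a, Atp6v1b2, Atp6v1c1, Atp6v1e1 and Atp6v1h) and the accessory protein Atp6ap1. The vehicle group and the Ca(OH)2 nanoparticle group each held 3 libraries of total RNA, numbered 1 to 3 in the sample titles and made 12 hours after treatment. Both groups were mouse marrow-derived dendritic cells kept in DMEM with serum, penicillin and streptomycin. The labels give no dose, mouse strain or age, and do not say whether libraries came from separate mice or cultures, so every p-value below measures only the spread between these libraries.

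The vacuolar ATPase (V-ATPase) is a rotary pump that uses ATP to move protons into endosomes, lysosomes and phagosomes. Its cytosolic V1 sector splits ATP and turns a shaft, and its membrane V0 sector carries the protons. In dendritic cells the pump sets the acidity in which antigen is processed, and the sectors can come apart and join again. Calcium hydroxide is a base.

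Expression is given in FPKM, here fragments divided by transcript length in kilobases and by a scale set for each library, so levels of different genes can be compared per length. Recovered totals ran from 17261836 to 21965085 reads per library, and each member rested on 2482 to 19097 reads in every library. Nanoparticle library 1 stood apart. Over 10682 tested genes, its log2 values correlated with those of nanoparticle libraries 2 and 3 at 0.942 and 0.928, against 0.990 between those libraries and 0.993 to 0.994 between vehicle libraries. The summed FPKM of the 11 dendritic cell markers was 1047 in nanoparticle library 1, against 1699 to 1748 in the vehicle libraries and up to 1831 in the nanoparticle group. Of the 9 tested, Irf8 was higher and Cd209a, Clec10a and Zbtb46 were lower with nanoparticles past the limma test described below. That test called 33.2% of all tested genes, 17.0% higher and 16.2% lower. The lowest library still held 248 FPKM of Itgax, 191 FPKM of Sirpa and 494 FPKM of H2-Ab1. Flt3 was at 8 reads or fewer in every library. Results are therefore given with and without this library. In bulk RNA, fewer cells of a type and less RNA per cell cannot be told apart.

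In the vehicle libraries the members spanned a wide range of levels. Atp6v0d2, the d2 form of the subunit that couples the membrane ring to the shaft, was the highest at 284 ± 2.38 FPKM (SD, n = 3). It was followed by Atp6v1b2, the B2 form of the subunit that pairs with the catalytic subunit, at 170 ± 9.31 FPKM. Atp6ap1 and Atp6v0d1 came next at 142 ± 2.40 and 141 ± 3.22 FPKM, and their ranges overlapped. Atp6v1e1, Atp6v0c and Atp6v0a1 formed a middle group at 85.3 ± 0.790, 82.7 ± 4.81 and 76.4 ± 3.02 FPKM, each overlapping its neighbour in this order. Atp6v1a, at 62.6 ± 0.836 FPKM, Atp6v1c1, at 34.7 ± 0.483 FPKM, and Atp6v1h, at 13.7 ± 0.970 FPKM, were the lowest and did not overlap each other. With nanoparticles Atp6v0d2 was still the highest member and Atp6v1h the lowest, while Atp6v1e1 moved from rank 5 to rank 2 and Atp6v0a1 from rank 7 to rank 9. The ratio of the highest to the lowest member was 19.4, 21.9 and 21.3 in vehicle libraries 1 to 3 and 9.32, 9.71 and 9.49 in nanoparticle libraries 1 to 3. The highest and lowest members, Atp6v0d2 and Atp6v1h, thus lay closer together in every nanoparticle library. Whether the spread over all 10 members narrowed was not tested.

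**Figure D1:**
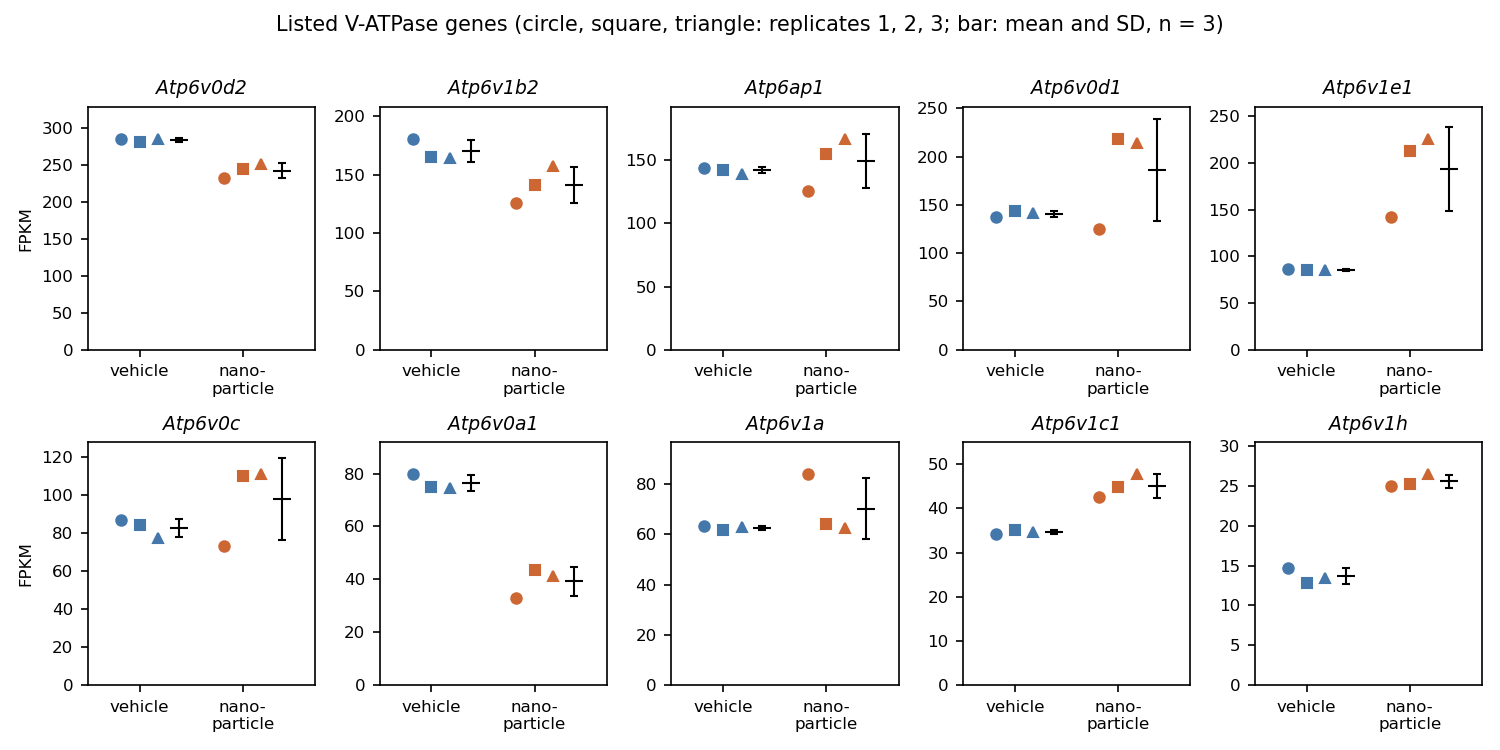
FPKM of the 10 listed V-ATPase genes, each panel with its own axis from 0, in 3 vehicle (blue) and 3 nanoparticle (orange) libraries, with the mean and SD beside them. Atp6v1e1, Atp6v1h and Atp6v1c1 lie above the vehicle libraries in all 3 nanoparticle libraries, and Atp6v0a1, Atp6v0d2 and Atp6v1b2 lie below them. Nanoparticle library 1 (circle) falls apart from libraries 2 and 3 in Atp6v0d1, Atp6v0c, Atp6ap1 and Atp6v1a. It also does so in Atp6v1e1 and Atp6v0a1, but on the same side of the vehicle libraries as libraries 2 and 3.

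Members moved in both directions with nanoparticles. In limma's moderated test on log2(FPKM + 1), with Benjamini-Hochberg adjustment over all 10682 tested genes and a threshold of 0.05, 4 of the 10 members differed: Atp6v1e1, Atp6v1h and Atp6v1c1 rose, and Atp6v0a1 fell. Of all tested genes 33.2% passed in this comparison, 17.0% of them higher and 16.2% lower as shares of the genes tested. The count of 4 in 10 is thus close to the background. The groups did not overlap in 6 members, 3 higher and 3 lower, against 52.1% of all tested genes, 25.9% higher and 26.2% lower. The median log2 change of the members was 0.18, and that of all tested genes was -0.0010. All 10 members passed the filter of at least 1 FPKM in at least 3 libraries.

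The peripheral stalk gene Atp6v1e1, whose product helps hold the V1 sector still while the shaft turns, changed most among the members with the deposited scaling. The gene spans 120794305 to 120822793 of chromosome 6, minus strand (GENCODE M21, build GRCm38). Its level was 86.2, 84.8 and 85.0 FPKM in vehicle libraries 1 to 3 and 142, 213 and 226 FPKM in nanoparticle libraries 1 to 3. Every nanoparticle library was higher than every vehicle library, with library 1 the lowest of its group. On the log2(FPKM + 1) scale it rose by 1.14 (SE 0.194, limma adjusted p = 0.0056), and by 1.35 without nanoparticle library 1. Its mean FPKM was 2.27 times that of vehicle. With libraries scaled to equal read totals its log2 change was 0.80, and Atp6v0a1 changed more, at -1.29. The same held with equal totals of deposited values (0.68 against -1.41) and with upper-quartile scaling (0.93 against -1.16).

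Atp6v1h encodes the H subunit, which couples ATP splitting to rotation and holds V1 silent when it is detached from the membrane. The gene spans 5070018 to 5162529 of chromosome 1, plus strand. The vehicle libraries held 14.7, 12.8 and 13.4 FPKM and the nanoparticle libraries 25.0, 25.2 and 26.5 FPKM. Here nanoparticle library 1 was close to the other libraries of its group, at 0.965 times their mean. The log2 change was 0.86 (SE 0.0972, limma adjusted p = 0.0012), and 0.88 without nanoparticle library 1.

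Atp6v1c1 encodes the C1 subunit, a clamp that links the peripheral stalks to the membrane sector and leaves when the sectors separate. The gene spans 38661933 to 38692446 of chromosome 15, plus strand. Its level was 34.1, 35.1 and 34.8 FPKM in vehicle and 42.5, 44.9 and 47.8 FPKM in nanoparticle libraries 1 to 3. The groups did not overlap, but the difference was small at 0.37 on the log2 scale (SE 0.0970, limma adjusted p = 0.0291). The call was lost when any 1 library other than nanoparticle library 1 was left out (limma adjusted p = 0.0674 to 0.126). With libraries scaled to equal totals of recovered reads the log2 change was 0.031 (limma adjusted p = 0.807), where the median of all genes was -0.28.

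Atp6v0a1 encodes the a1 form of the subunit that holds the paths by which protons enter and leave the ring and helps decide to which compartment a pump belongs. The gene spans 101009452 to 101063719 of chromosome 11, plus strand, and was the member that fell. The vehicle libraries held 79.9, 74.8 and 74.5 FPKM, and the nanoparticle libraries held 33.1, 43.4 and 41.2 FPKM. Its mean in vehicle was 1.95 times that with nanoparticles, and the groups were far apart. The log2 change was -0.95 (SE 0.133, limma adjusted p = 0.0027), and -0.84 without nanoparticle library 1.

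The calls of Atp6v1e1, Atp6v1h and Atp6v0a1 held, in the same direction, under all 16 alternative settings of the fit. The log2 change ran from 0.68 to 1.35 for Atp6v1e1, from 0.41 to 0.91 for Atp6v1h and from -1.41 to -0.84 for Atp6v0a1. Atp6v1c1 passed in 7 of the 16.

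**Figure D2:**
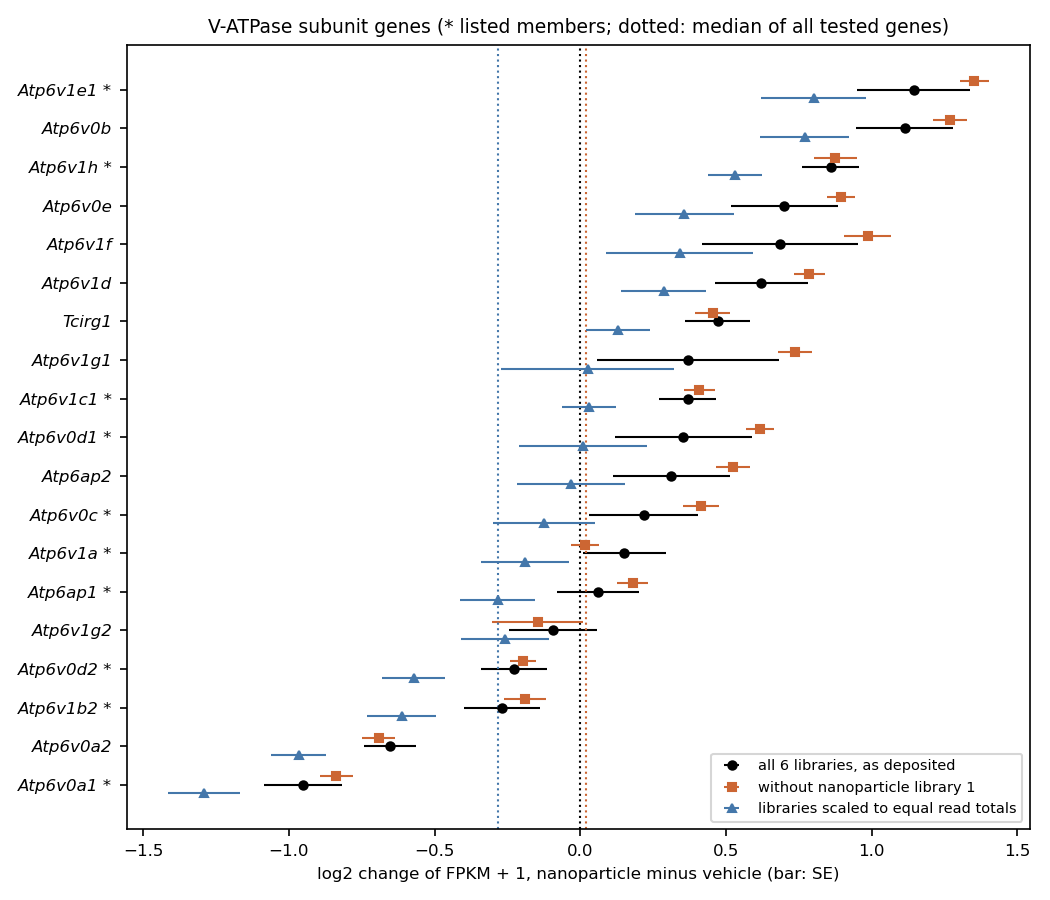
Log2 change of FPKM + 1 (nanoparticle minus vehicle, bar: SE) for the 10 listed genes (*) and 9 other tested V-ATPase subunit genes, with all libraries, without nanoparticle library 1, and with libraries scaled to equal read totals. Dotted lines mark the median of all tested genes, -0.0010, 0.021 and -0.28 in the same order. Atp6v1e1 lies at the top (1.14) and Atp6v0a1 at the bottom (-0.95) in each of these fits.

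For 4 of the 6 members that did not pass, nanoparticle library 1 lay on the other side of the vehicle libraries from libraries 2 and 3, or apart from them. Atp6v0d1, the widely expressed d1 form, held 137, 144 and 141 FPKM in vehicle and 125, 219 and 214 FPKM with nanoparticles. Nanoparticle library 1 was thus below all vehicle libraries and libraries 2 and 3 well above them. The log2 change was 0.35 (95% confidence interval -0.21 to 0.92, limma adjusted p = 0.294) and 0.62 without nanoparticle library 1 (limma adjusted p = 7.7e-05). Atp6v0c, which encodes the ring subunit that carries protons through the membrane, showed the same split, with 86.8, 84.0 and 77.4 FPKM in vehicle and 73.0, 110 and 111 FPKM with nanoparticles (log2 change 0.22, interval -0.24 to 0.67, limma adjusted p = 0.422). Its pseudogene Atp6v0c-ps2 was listed at 5.56 to 6.04 FPKM in vehicle and at 4.48, 8.97 and 8.15 FPKM in nanoparticle libraries 1 to 3, and whether reads were shared between the copies was not tested. Atp6ap1, an accessory protein needed for pump assembly, held 144, 142 and 139 FPKM in vehicle and 125, 155 and 167 FPKM with nanoparticles (log2 change 0.060, interval -0.28 to 0.40, limma adjusted p = 0.779). Atp6v1a, the catalytic subunit that splits ATP, went the opposite way in that library. It held 63.2, 61.6 and 63.0 FPKM in vehicle and 84.0, 64.2 and 62.4 FPKM with nanoparticles. Libraries 2 and 3 were thus at the vehicle level, and the log2 change was 0.15 with all libraries (interval -0.19 to 0.49, limma adjusted p = 0.464) and 0.016 without library 1.

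The members with the highest levels in vehicle were lower in each nanoparticle library without passing the test. Atp6v0d2 held 286, 282 and 285 FPKM in vehicle and 232, 245 and 251 FPKM with nanoparticles (log2 change -0.23, SE 0.113, interval -0.50 to 0.046, limma adjusted p = 0.174). Atp6v1b2 held 181, 165 and 164 FPKM in vehicle and 126, 141 and 157 FPKM with nanoparticles (log2 change -0.27, SE 0.130, interval -0.58 to 0.046, limma adjusted p = 0.165). In both genes the groups did not overlap, though the gap between them was narrow for Atp6v1b2. With libraries scaled to equal read totals both passed, at -0.57 (limma adjusted p = 0.0065) and -0.61 (limma adjusted p = 0.0074). Of the 10 members, 9 had their lowest nanoparticle value in library 1, which was the case for 46.3% of all tested genes.

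Leaving out nanoparticle library 1 raised the members past the threshold from 4 to 8, of which 6 were higher (Atp6v1e1, Atp6v1h, Atp6v0d1, Atp6v0c, Atp6v1c1 and Atp6ap1) and 2 lower (Atp6v0a1 and Atp6v0d2). That fit called 64.8% of all tested genes, 34.3% higher and 30.5% lower. Scaling to equal read totals gave 5 members, Atp6v1e1 and Atp6v1h higher and Atp6v0a1, Atp6v0d2 and Atp6v1b2 lower, with 44.2% of all genes called. Under that scaling 10.3% of all genes were higher and 33.9% lower. Equal totals of deposited values gave 2 members higher and 4 lower, with 48.6% of all genes called (8.25% higher, 40.3% lower). Upper-quartile scaling gave 2 higher and 3 lower, with 37.8% called (12.3% higher, 25.5% lower).

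Shares within a library do not depend on the scaling between libraries. The 10 members summed to 1078 to 1113 FPKM in the vehicle libraries and to 1008, 1260 and 1304 FPKM in nanoparticle libraries 1 to 3, so the groups overlapped. Within this sum Atp6v1e1 made up 7.81% ± 0.0652 in vehicle and 16.1% ± 1.75 with nanoparticles (SD, n = 3 each). Atp6v0a1 made up 6.99% ± 0.160 and 3.30% ± 0.143, and Atp6v0d2 26.0% ± 0.386 and 20.6% ± 2.14. The shares of Atp6v1h and Atp6v1c1 were also higher, and those of Atp6v1b2 and Atp6ap1 lower, in every nanoparticle library. Those of Atp6v0c, Atp6v0d1 and Atp6v1a overlapped between the groups.

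Across the sectors, the 5 V1 members were summed and set against the summed V0 members Atp6v0a1, Atp6v0d1 and Atp6v0d2, with Atp6v0c left out. The log2 of this ratio was -0.41, -0.48 and -0.48 in vehicle and 0.10, -0.054 and 0.035 in nanoparticle libraries 1 to 3. The V1 members were thus higher relative to these V0 members in every nanoparticle library, by 0.48 on the log2 scale, and by 0.43 with Atp6v0c in the V0 sum. This did not extend to the sectors as a whole. With all 9 tested V1 and 8 tested V0 subunit genes, a sum added after seeing the data, the log2 ratio was -0.52, -0.54 and -0.52 in vehicle and -0.54, -0.36 and -0.26 in nanoparticle libraries 1 to 3. The groups then overlapped, nanoparticle library 1 lay within the vehicle range, and the difference was 0.14 (exact permutation p = 0.3, n = 3 each). For the ratio of the listed members and the 4 isoform shares described next, complete separation of 3 libraries from 3 gave an exact permutation p of 0.1 (two-sided, n = 3 each), the smallest this design allows. The Benjamini-Hochberg adjusted value over the 5 measures was also 0.1.

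The a subunit has several forms encoded by different genes, and the table allows their proportions to be read in each library. The a1 gene Atp6v0a1 gave 30.4%, 29.9% and 31.0% of the summed FPKM of a1, a2 and a3 in the vehicle libraries and 12.2%, 16.0% and 15.2% in nanoparticle libraries 1 to 3. Tcirg1, which encodes the a3 form known from lysosomes and from the bone-facing membrane of osteoclasts, gave 64.9%, 65.0% and 63.9% in vehicle and 84.9%, 81.4% and 82.2% with nanoparticles. The a2 gene Atp6v0a2 gave 4.94% ± 0.233 in vehicle and 2.76% ± 0.145 with nanoparticles (SD, n = 3 each). All nanoparticle libraries thus had a larger share of a3 and smaller shares of a1 and a2. The mean difference was 18.2 percentage points for a3 and -16.0 for a1 (exact permutation p = 0.1, adjusted p = 0.1, n = 3 each), and without nanoparticle library 1 these were 17.1 and -14.9.

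For the d subunit, Atp6v0d2 gave 67.6%, 66.2% and 66.9% of the summed d1 and d2 FPKM in vehicle and 65.1%, 52.8% and 54.0% in nanoparticle libraries 1 to 3. The groups did not overlap, but nanoparticle library 1 lay just below the lowest vehicle library, while libraries 2 and 3 lay far lower. The mean difference was -9.60 points (exact permutation p = 0.1, adjusted p = 0.1, n = 3 each), and -13.5 without nanoparticle library 1.

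**Figure D3:**
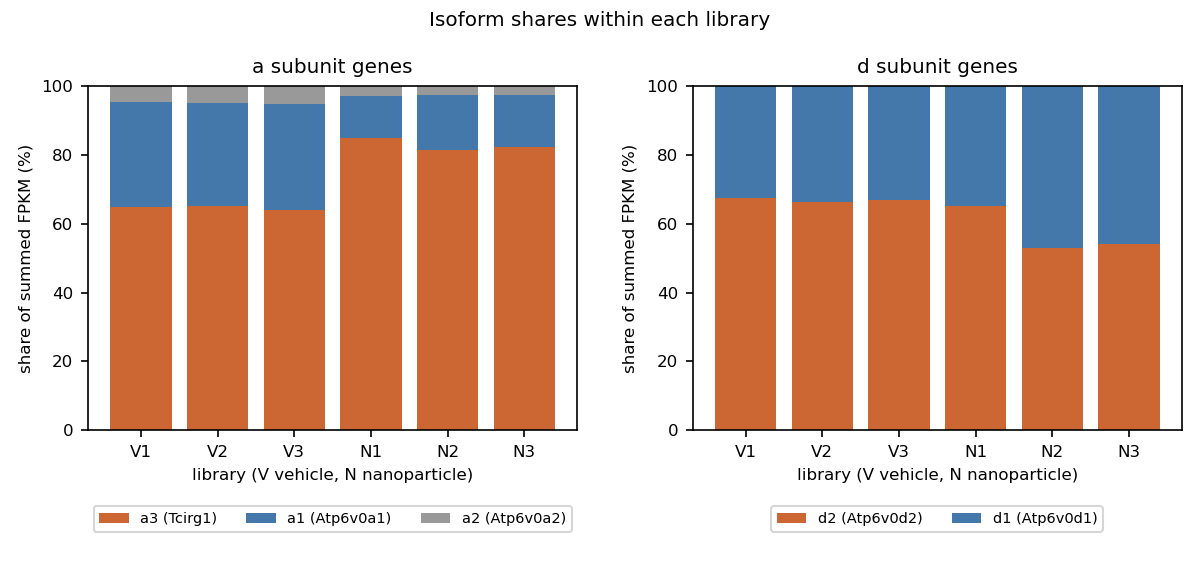
Share of summed FPKM within each library, in percent, for the a subunit genes (left) and the d subunit genes (right), in vehicle libraries V1 to V3 and nanoparticle libraries N1 to N3. The a3 share is 63.9% to 65.0% in vehicle and 81.4% to 84.9% with nanoparticles, and the d2 share of N1 (65.1%) is near the vehicle libraries.

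Among the remaining 15 V-ATPase subunit genes of a list drawn up for this comparison, 13 were in the table and 9 passed the filter. Of these, 4 rose (Atp6v0b, Tcirg1, Atp6v0e and Atp6v1d), 1 fell (Atp6v0a2) and 4 did not pass, beside 33.2% of all tested genes called (17.0% higher, 16.2% lower). Their median log2 change was 0.47. Atp6v0b, which encodes a ring subunit related to Atp6v0c, held 128, 126 and 121 FPKM in vehicle and 219, 290 and 317 FPKM with nanoparticles (log2 change 1.11, SE 0.166, limma adjusted p = 0.0035). The groups were widely separated, and its change was close in size to that of Atp6v1e1. Tcirg1 held 171, 162 and 154 FPKM in vehicle and 231, 221 and 223 FPKM with nanoparticles (log2 change 0.47, SE 0.112, limma adjusted p = 0.0197). Unlike in most members, nanoparticle library 1 was the highest of its group. Atp6v0a2 held 12.3, 12.6 and 12.3 FPKM in vehicle and 7.97, 7.30 and 7.26 FPKM with nanoparticles (log2 change -0.65, SE 0.0882, limma adjusted p = 0.0024).

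Atp6v0e, a small membrane subunit, held 75.6, 74.9 and 72.6 FPKM in vehicle and 92.5, 138 and 140 FPKM with nanoparticles (log2 change 0.70, limma adjusted p = 0.0285). Atp6v1d, part of the central shaft, held 26.4, 27.2 and 26.0 FPKM in vehicle and 32.7, 45.6 and 47.3 FPKM with nanoparticles (log2 change 0.62, limma adjusted p = 0.0262). Both were separated between groups with library 1 nearest to vehicle. With libraries scaled to equal read totals Tcirg1, Atp6v0e and Atp6v1d no longer passed (log2 changes of 0.13, 0.36 and 0.29), whereas Atp6v0b and Atp6v0a2 passed under all 16 alternatives. All 3 calls were also lost when any 1 vehicle library was left out (limma adjusted p = 0.0720 to 0.118). The same held without nanoparticle library 2 (limma adjusted p = 0.0581 to 0.0928). Each of these fits left 1 higher subunit gene among the 9. Without nanoparticle library 3, Atp6v0e and Atp6v1d were lost (limma adjusted p = 0.0736 and 0.0663).

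The other shaft gene Atp6v1f held 116, 114 and 119 FPKM in vehicle and 123, 212 and 254 FPKM with nanoparticles (log2 change 0.68, limma adjusted p = 0.0972). The stalk gene Atp6v1g1 held 156, 157 and 150 FPKM in vehicle and 120, 247 and 269 FPKM with nanoparticles (log2 change 0.37, limma adjusted p = 0.411). The accessory gene Atp6ap2 held 136, 132 and 132 FPKM in vehicle and 123, 183 and 201 FPKM with nanoparticles (log2 change 0.31, limma adjusted p = 0.280). In each of these, nanoparticle libraries 2 and 3 were above all vehicle libraries and library 1 was near or below them. All of them passed without library 1, at log2 changes of 0.99, 0.74 and 0.52. Atp6v1g2, at 0.579 to 1.27 FPKM in all libraries, stayed near the filter (log2 change -0.093, limma adjusted p = 0.677). The tissue-restricted forms Atp6v1b1, Atp6v1c2, Atp6v0e2 and Atp6v1e2 were at 0.122 FPKM or less in every library.

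**Figure D4:**
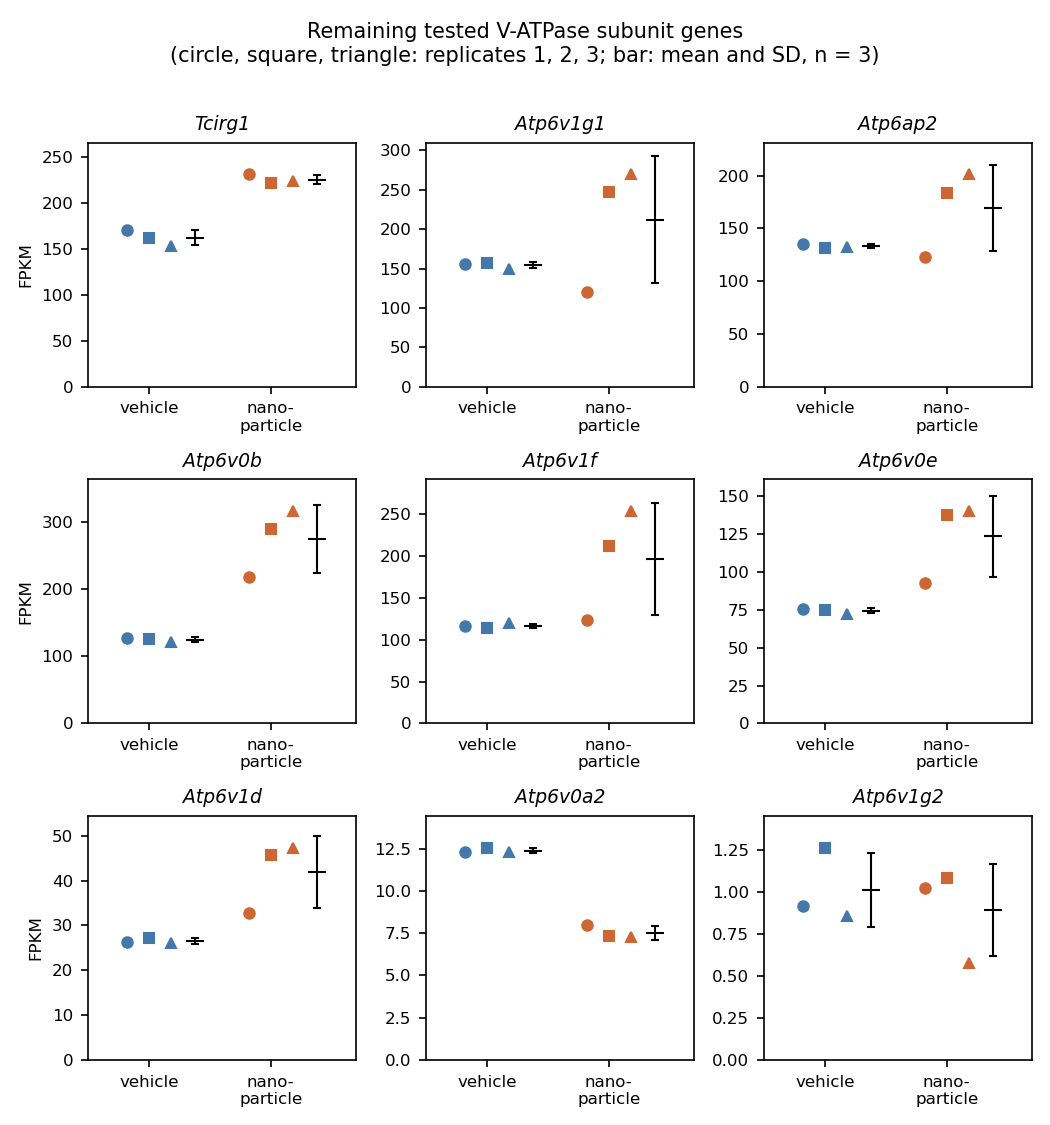
FPKM of the 9 remaining tested V-ATPase subunit genes, each panel with its own axis from 0, in 3 vehicle (blue) and 3 nanoparticle (orange) libraries, with the mean and SD beside them. Atp6v0b, Tcirg1, Atp6v0e and Atp6v1d are higher in all nanoparticle libraries, Atp6v0a2 is lower in all, and Atp6v1g1 and Atp6ap2 are lower than vehicle in nanoparticle library 1 only.

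Promoters were compared because the members moved in different directions. RefSeq promoter windows (250 bases before to 50 bases after the start, build GRCm38.p6) were found for 6 of the 10 members. None was found for Atp6v1h, Atp6v1c1, Atp6v0d2 and Atp6v1b2. Of the members past the test, only Atp6v1e1 and Atp6v0a1 could therefore be compared. The stretches below run from 140 bases before to 10 bases after the RefSeq start of the member that rose most, the member that fell, and the members with an E-box, 5′ to 3′ on the gene's strand. For Atp6v0a1 and Atp6v1a the RefSeq window lies inside the GENCODE gene span. That span begins at 101009452 for Atp6v0a1 and, on the minus strand, at 44139705 for Atp6v1a. Sequence before these GENCODE 5′ ends was not searched. Capitals mark the E-box CACGTG. This palindrome is the core of the motif bound by the TFEB family of transcription factors, which are known to control lysosomal genes.
Atp6v1e1, chr6:120822689-120822838, minus strand: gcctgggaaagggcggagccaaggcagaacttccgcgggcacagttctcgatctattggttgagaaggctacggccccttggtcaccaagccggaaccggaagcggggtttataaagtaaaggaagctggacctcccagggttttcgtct
Atp6v0a1, chr11:101010258-101010407, plus strand: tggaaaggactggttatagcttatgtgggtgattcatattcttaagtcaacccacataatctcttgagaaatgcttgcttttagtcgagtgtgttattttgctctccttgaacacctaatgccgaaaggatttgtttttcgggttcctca
Atp6v1a, chr16:44139250-44139399, minus strand: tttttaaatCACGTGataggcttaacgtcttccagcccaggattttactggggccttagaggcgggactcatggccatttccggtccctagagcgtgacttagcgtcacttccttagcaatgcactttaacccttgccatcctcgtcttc
Atp6v0d1, chr8:105566055-105566204, minus strand: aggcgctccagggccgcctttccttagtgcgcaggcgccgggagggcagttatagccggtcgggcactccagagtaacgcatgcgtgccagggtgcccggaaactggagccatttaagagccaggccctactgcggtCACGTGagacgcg

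The 6 members had 8 windows, because some genes have more than 1 start. The E-box was in 2 of these windows, those of Atp6v1a and Atp6v0d1, against 7.15% of 32851 promoter windows. It began 131 bases before the RefSeq start in Atp6v1a and 3 bases before that of Atp6v0d1. In both it was part of the longer palindrome TCACGTGA, found in 0.974% of windows. With a G before and a C after, it becomes the palindrome known as the CLEAR motif, which was in 0 of the 6 members and in 0.326% of windows. The windows of Atp6v1e1 and Atp6v0a1 held no CACGTG, nor did those of Atp6v0c and Atp6ap1. Neither member with an E-box passed the test with all libraries. Atp6v0d1 passed without nanoparticle library 1 (log2 change 0.62, limma adjusted p = 7.7e-05), and Atp6v1a passed in 0 of the 16 alternatives. The 13 remaining subunit genes with a window had 16 windows. Of these genes 2 held an E-box, Atp6v0b and Atp6v0e, both of which rose. Atp6v0b passed in all 16 alternative settings and Atp6v0e in 6 of them.

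The V-ATPase acts with proteins that assemble it and with other ion carriers of acidic organelles, and lists of these were read from the same fit. Of 10 tested genes for assembly factors, the RAVE complex (which rejoins V1 to V0) and pump-binding proteins with a TLDc domain, 2 rose and 2 fell, beside 33.2% of all tested genes called, with a median log2 change of -0.26. The number lower was 1 when any 1 library other than nanoparticle library 1 was left out, 5 without nanoparticle library 1, and 6 with equal read totals. Ncoa7, which encodes a TLDc protein, rose from 1.82 ± 0.268 to 4.73 ± 0.485 FPKM (SD, n = 3 each, limma adjusted p = 0.0012). The assembly factor gene Tmem199 rose from 11.6 ± 0.812 to 18.6 ± 1.40 FPKM (limma adjusted p = 0.0051). Wdr7, which encodes a partner of the RAVE subunits, fell from 11.8 ± 0.476 to 6.17 ± 1.28 FPKM (limma adjusted p = 0.0058).

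Of 14 tested channels and exchangers of endosomes and lysosomes, 4 rose and 2 fell, beside the same 33.2% of all genes, with a median log2 change of 0.052. The number lower was 6 without nanoparticle library 1, 1 without vehicle library 3 and 5 with equal read totals. The calcium-permeable channel gene Mcoln2 rose from 9.39 ± 0.288 to 52.3 ± 2.33 FPKM (SD, n = 3 each, limma adjusted p = 3.9e-05). Clcn7, whose chloride-proton exchanger balances the charge moved by the pump, rose from 35.7 ± 1.18 to 114 ± 21.4 FPKM (limma adjusted p = 6.2e-04). The channel gene Tpcn1 fell from 6.47 ± 0.875 to 1.42 ± 0.426 FPKM (limma adjusted p = 7.1e-04).

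Of 18 tested genes of the lysosomal mTORC1 platform and the MiT/TFE factors, 0 passed in limma's test against 33.2% of all tested genes. In that test 4 had an unadjusted p under 0.05, as did 4743 of all 10682 tested genes. Limma-voom called 1. Without nanoparticle library 1, 7 rose and 8 fell, in a fit that called 64.8% of all tested genes (34.3% higher, 30.5% lower). Tfeb, named here for its role after its values were seen, averaged 6.49 ± 0.171 FPKM in the vehicle group and 3.35 ± 1.64 FPKM in the nanoparticle group (SD, n = 3 each). Its log2 change was -0.87 (limma adjusted p = 0.0720). Its groups did not overlap, and nanoparticle library 1 was the lowest at 1.46 FPKM. Its log2 change without library 1 was -0.50 (limma adjusted p = 8.5e-04).

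Because Tcirg1 and Atp6v0d2 are also known as the pump genes of osteoclasts, markers of other myeloid cells were read beside them. The 9 osteoclast markers summed to 298 to 314 FPKM in vehicle and 491 to 495 FPKM with nanoparticles. Of 7 tested, 3 rose (Ctsk, Car2 and Acp5) and 0 fell past the test, beside 33.2% of all tested genes called. Without nanoparticle library 1, 5 were higher and 2 lower, beside 64.8%. Ocstamp was lower in every nanoparticle library without passing, at 54.4, 53.3 and 52.6 FPKM in vehicle and 4.57, 30.4 and 28.9 FPKM with nanoparticles (log2 change -1.65, limma adjusted p = 0.103). The defining markers Calcr and Oscar were at 10 reads or fewer in every library. Dcstamp, needed for osteoclast fusion, was abundant in both groups, at 157 to 169 FPKM in vehicle and 120 to 202 FPKM with nanoparticles. The 12 macrophage markers summed to 1125 to 1252 FPKM in vehicle and 1042 to 1234 FPKM with nanoparticles. Of 10 tested, 3 were higher and 4 lower, beside 33.2% of all tested genes called. Without nanoparticle library 1, 4 were higher and 5 lower, beside 64.8%. The 11 neutrophil markers summed to 265 to 299 FPKM in vehicle and 180 to 253 FPKM with nanoparticles. Ly6g, Mpo and Retnlg were at 3 reads or fewer. Of 3 tested neutrophil markers, 1 was higher and 1 lower past the test, beside 33.2% of all tested genes called. Without nanoparticle library 1, 2 were higher and 1 lower, beside 64.8%. The mast cell and basophil markers summed to 3.93 to 6.12 FPKM in vehicle and 10.3 to 26.1 FPKM with nanoparticles, highest in nanoparticle library 1. Mcpt8, Ms4a2 and Cma1 were at 3 reads or fewer. Of 4 tested, 1 was higher (log2 change 3.10) and 1 lower, beside the same 33.2%. Without nanoparticle library 1, 1 was higher and 2 lower, beside 64.8%. The part of such cells in the changes of the pump genes was not tested.

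For the 3 members that rose past the threshold, the tested gene with the most similar pattern of log2 values over the 6 libraries was Anxa5 for Atp6v1e1, Leng9 for Atp6v1h and Elp5 for Atp6v1c1. Pearson's r was above 0.99 in each case. Such values are common where groups are separated: 114, 83 and 94 genes reached an r over 0.99 with these members. Anxa5, which encodes a calcium-dependent phospholipid-binding protein, averaged 306 ± 1.49 FPKM in the vehicle group and 583 ± 110 FPKM in the nanoparticle group (SD, n = 3 each).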

How the data were processed

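RNA-seq of 3 vehicle and 3 nanoparticle libraries was analysed. The submitters' processing notes name CASAVA, STAR 2.5, HTSeq, edgeR 3.16.5, DESeq2, and the builds mm10 and hg19, without roles; strand, annotation and normalization are not given in the sources used here. Values deposited by the authors are taken as FPKM, a unit inferred from the values: with GENCODE M21 exon lengths and 1 scale per library, 95.8% to 96.1% of the values above 0 became whole reads (within 0.01). Both deposited tables hold the same 140388 values. Lengths were searched for 474 further abundant genes and found for 473, among them Tcirg1 and Atp6v0e, whose deposited levels rest on a length other than the annotated one. All 10 members gave whole reads with the annotated length. The deposited scaling between libraries appears to be of the median-of-ratios kind, which assumes that most genes do not change.

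The 10682 genes that reached 1 FPKM in 3 or more libraries were tested on log2(FPKM + 1), a scale that understates changes of low genes, with limma 3.58.1 in R 4.3.3 (lmFit, eBayes with trend, group as the single term). A simulation with known changes served to check the script. Within-library ratios used exact permutation tests (scipy 1.17.1, Python 3.11.15). Members, lists and tests were chosen with earlier results of these data known. Named are all members and tested subunits, up to 3 called genes with the smallest adjusted p per other list, and the gene most like each called member (for Atp6v0a1 it is not reported here). No library was a duplicate of another (chi-square over its degrees of freedom, 2.85 to 234 within groups). Positions are GENCODE M21 on GRCm38, and promoters are RefSeq. Slc18a1, Slc25a18 and Rgs20 overlap Atp6v1b2, Atp6v1e1 and Atp6v1h on the opposite strand, at no more than 1.59 FPKM.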

Additional observations from a re-analysis of the deposited data

How the results depend on the processing

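Pseudocounts of 0.1 and 0.5, both filters, no trend and limma-voom on recovered reads changed no member's direction or call. Over the fits that left out 1 library, calls among all genes ran from 2141 to 6923 (higher 1114 to 3660, lower 1027 to 3263), members called from 3 to 8 (higher 2 to 6, lower 1 to 2), other subunits higher from 1 to 7, assembly genes lower from 1 to 5, ion carriers lower from 1 to 6, and mTORC1 platform genes higher from 0 to 7 and lower from 0 to 8. The highest of these counts came without nanoparticle library 1. With equal totals of deposited values, 881 genes were higher and 4307 lower, with equal read totals 1105 and 3619, with upper-quartile scaling 1318 and 2720, and with a filter of 5 FPKM 975 were lower. In the same order, the 3 scalings gave 4, 3 and 3 members lower and 1, 1 and 1 other subunits higher. Lower ion carriers numbered 5, 5 and 4, and lower mTORC1 platform genes 6, 5 and 3 (1 with no filter and 1 with limma-voom). Of the assembly genes, equal totals of deposited values and of reads gave 1 and 1 higher and 7 and 6 lower, the filter of 5 FPKM 1 higher and 1 lower, and no filter 1 lower.

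Equal totals of deposited values turned the log2 change of Atp6v0c to -0.25, Atp6v0d1 to -0.11, Atp6v1a to -0.31, Atp6v1c1 to -0.091, Atp6ap1 to -0.41 (limma adjusted p = 0.0131), Atp6v1g1 to -0.099 and Atp6ap2 to -0.16. Equal read totals turned Atp6v0c to -0.12, Atp6v1a to -0.19, Atp6ap1 to -0.28 and Atp6ap2 to -0.031, and upper-quartile scaling turned Atp6v1a to -0.059 and Atp6ap1 to -0.15. These scalings shift every gene, with medians over all genes of -0.38, -0.28 and -0.17. Over the fits that left out 1 library, Atp6ap1 ran from -0.026 (without nanoparticle library 3) to 0.18 and Atp6v1g2 reached 0.033 (without the same library), and the cause was not tested. With the replicate number as a block 2785 genes passed, 3 members (Atp6v1c1 was lost, limma adjusted p = 0.108) and 1 other subunit higher. Same-numbered libraries correlated at 0.0654, 0.113 and -0.0577 in their deviations from group means, and vehicle library 3 did not correlate best with its own number, so the numbers were not taken to pair the libraries. The within-library ratios kept their direction in every alternative, and the log2 ratio of V1 to V0 sums moved from 0.48 to 0.14 with all tested subunits in both sums, an alternative chosen after seeing the data.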
